A study of Mus musculus with 6 samples.

Results

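The glycolysis and hypoxia-responsive genes examined here comprised glucose and lactate transport, the enzymes from hexokinase to lactate dehydrogenase, the regulators of glycolytic flux, the hypoxia-inducible factor (HIF) system and a panel of genes known to be induced by HIF. The members were chosen by name: 39 gene names were matched to the gene names of the probes on the arrays, with Pkm and Pkm2 counted as the same gene. They gave 38 of the 35527 genes and transcripts named on the arrays, measured by 65 probes. The comparison was between 3T3 cells given an antisense oligonucleotide against the long non-coding RNA Ntep and cells given a control oligonucleotide.

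Glycolysis splits glucose into pyruvate in the cytosol, and lactate dehydrogenase turns pyruvate into lactate when its entry into mitochondria is limited. In oxygen, prolyl hydroxylases of the Egln family mark the HIF alpha subunits for capture by the Vhl ubiquitin ligase and destruction; without oxygen the alpha subunits persist, pair with Arnt and bind short hypoxia response elements in the genes they induce. Most glycolytic enzymes, the glucose transporter Slc2a1, the growth factor Vegfa and some of the prolyl hydroxylases themselves are known HIF targets, so the same transcripts serve as a readout of both metabolism and hypoxia signalling in cultured fibroblasts, which are strongly glycolytic when they proliferate.

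The 6 arrays were Agilent mouse arrays in 1 colour, all on 1 slide, with RNA of 3T3 cells, which are fibroblasts of a long-established line from mouse embryos. Cells were treated for 48 h with 50 nM GapmeR Ntep (an oligonucleotide that guides RNase H to its target) in 3 samples and with 50 nM GapmeR control in the other 3, each group coming from 3 independent experiments. The dose is that of the labels, whereas the study's supplementary spreadsheet gives it as 2 x 50 nM. All samples were grown in DMEM with serum, and the labels name no hypoxic culture. A single oligonucleotide sequence per group was used, so effects of the sequence other than on Ntep could not be separated here. In RNA from whole cultures, a smaller share of cells with a transcript and less of that transcript per cell cannot be told apart.

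The targeted transcript, A630089N07Rik in the files, had signals of 472, 91.5 and 226 in experiments 1, 2 and 3 with GapmeR Ntep and of 271, 272 and 361 with GapmeR control. In experiment 1 it went against its label, and over all arrays it differed by -0.48 on the log2 scale, with an SE of 0.58 (adjusted p = 0.632 by limma). The groups are therefore called by their labels, and every direction below is that of the label. The study itself reported lower Ntep by qPCR in 3T3 cells after 48 h with GapmeR Ntep, a measure other than this array probe. Per array 43.7% to 53.3% of the probes were well above background, no probe was saturated, and arrays correlated with each other at 0.926 to 0.985. Of 11 fibroblast markers 9 were well above background on all arrays, with a summed signal of 555800 to 737700 on the GapmeR Ntep arrays and 808800 to 892100 on the control arrays. Of 8 macrophage markers 5 were above background on all arrays and the defining Emr1 and Ptprc on none, while the summed signal was 42980 to 75390 against 21070 to 27730 and Cd68 was higher (log2 difference 1.21, limma adjusted p = 0.0287). Of the 6 macrophage markers tested, Cd68, Cd14, Csf1r and Itgam lay above 0 (1.11 to 3.19) and Aif1 and Lyz2 below it (-1.28 and -0.18). Cd68 alone passed, and with the experiments as a block 4 were called higher and Aif1 lower. Of 7 endothelial markers 3 were above background on all arrays and Cdh5, Tek and Tie1 on none. The summed signal of this list was 1108 to 1405 against 821.5 to 1127. Of the 4 tested, Esam, Kdr and Pecam1 lay above 0 (0.38 to 2.75) and Vwf below it (-1.08). None passed, and with the experiments as a block only Esam was called (limma adjusted p = 0.0402). Of 6 epithelial markers 3 were above background on all arrays, with sums of 5985 to 7735 against 4442 to 6979. The part of these markers in the results below was not tested.

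After 48 h, the transcripts of this programme did not move together. Ndrg1, a stress-responsive gene known to be induced by hypoxia, was 3.23-fold higher with GapmeR Ntep, and Kdm3a, a histone demethylase gene induced by HIF, was 1.80-fold lower. The other members did not pass the test (a limma adjusted p under 0.05 over all tested probes, with the brightest probe standing for a gene). Thus 1 of 37 tested members was called higher, where 1.98% of all 22094 tested genes were, and 1 was called lower, where 3.17% of all genes were (5.15% in either direction). With the experiments as a block the called members were again these, 1 in each direction, against 6.49% of all genes higher and 7.4% lower (13.9% in all). The study's cut-offs of a 2-fold change and an unadjusted p under 0.01 were applied here to limma p-values, not to those of the study's own test. By them 1 member was called, against 7.87% of all genes. At an unadjusted p under 0.05, 6 of 37 members passed, against 24.9% of all genes. The median log2 difference of the members was 0.00 and that of all genes 0.06, with 19 members above and 18 below 0. Ignoring sign, the median difference was 0.23 for the members and 0.41 for all genes. For 22 of 37 members (59.5%) the 95% confidence interval lay within a 2-fold change in either direction, which held for 42.4% of all genes. Many members were bright, whereas all genes included dim ones down to a group mean of 50. The part of signal level in these contrasts was not tested. With 75th percentile scaling in place of quantile normalization, the medians of both the members and all genes moved to 0.22. The plot of differences by role shows how narrow the intervals of most enzymes were and how wide those of Aldoc and Car9.

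**Figure D1:**
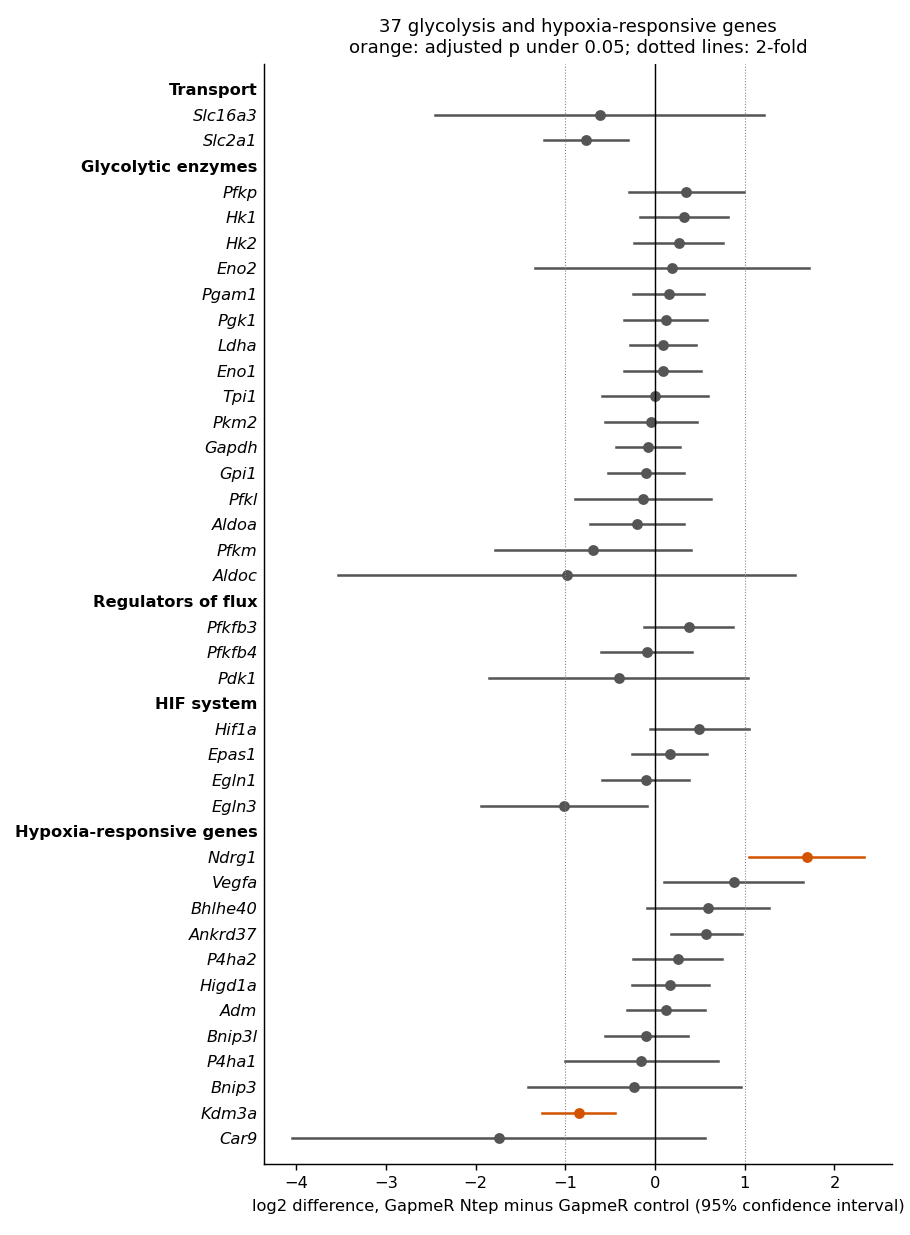
Log2 difference between the arrays labelled GapmeR Ntep and GapmeR control (x axis) for the brightest probe of each of 37 tested members (rows, grouped by role), with 95% confidence intervals from limma over 3 arrays a group. Ndrg1 at 1.69 and Kdm3a at -0.85 (orange) passed the test, and the intervals of 13 of 16 glycolytic enzymes lie between the dotted lines of a 2-fold change.

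The transporters lay below 0. Slc2a1 encodes GLUT1, the main glucose transporter of fibroblasts. Its signal was 61110, 70780 and 58890 on the GapmeR Ntep arrays of experiments 1, 2 and 3 and 129200, 101500 and 96670 on the control arrays. All 3 GapmeR Ntep arrays lay below all 3 control arrays, and the difference had the same sign in each experiment (-1.08, -0.52 and -0.71). The log2 difference of -0.77 (SE 0.19) did not pass the test (adjusted p = 0.072). It passed in 3 of 24 alternative settings. These were the test of only probes well above background (0.0459), a trend in a robust variance model (0.0238) and array weights (0.0102). Array weights called 10260 of all 30990 probes. With 75th percentile scaling the Slc2a1 difference was -0.53 (adjusted p = 0.2). The adjusted p was 0.129 without scaling and 0.0817 to 0.214 with any 1 array left out. Slc16a3, the lactate exporter MCT4, was dim and variable, with 89.8 to 587 on the GapmeR Ntep arrays and 185 to 552 on the control arrays, so that the groups overlapped (log2 difference -0.62, SE 0.75, adjusted p = 0.635).

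None of the 16 glycolytic enzymes passed the test. None was called by limma, none had an unadjusted p under 0.05, and none was called with the experiments as a block. The shares over all genes were 5.15%, 24.9% and 13.9%. Pfkm was called lower with array weights, a setting that called 10260 of all 30990 probes. The median log2 difference of the 16 enzymes was 0.04, and the differences ran from -0.99 (Aldoc) to 0.35 (Pfkp). For 13 of 16 (81.2%) the confidence interval excluded a 2-fold change, which held for 42.4% of all genes. Most of these enzymes were bright, and the part of signal level in this share was not tested. Ldha, which makes lactate from pyruvate, gave 271700, 263800 and 260900 on the GapmeR Ntep arrays and 269600, 237200 and 243800 on the control arrays (log2 difference 0.09, 95% interval -0.28 to 0.46). With 75th percentile scaling the Ldha difference was 0.30 and its SE rose from 0.15 to 0.24. Gapdh, the dehydrogenase often used as a reference transcript, gave 308300, 298700 and 290500 against 319100, 314500 and 317200. These Gapdh signals did not overlap, but the log2 difference was only -0.08 (95% interval -0.44 to 0.27, adjusted p = 0.748), and it turned to 0.17 with 75th percentile scaling and to 0.02 without scaling. The 7 Gapdh probes ranged from -0.08 to 0.12, one of them placed by the files on chromosome 8 and not at the Gapdh locus on chromosome 6. Probes of abundant glycolytic genes can also read transcripts of their processed pseudogenes, which these arrays cannot separate.

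Enzymes of the upper pathway did not pass the test either. Hk1 and Hk2, which trap glucose as its phosphate, differed by 0.32 and 0.26 (adjusted p = 0.366 and 0.463). Among the phosphofructokinases, which catalyse the committed step, Pfkp lay at 0.35, Pfkl at -0.13 and Pfkm at -0.69 (adjusted p = 0.454, 0.812 and 0.388). Gpi1, Aldoa and Tpi1, the enzymes around the split into trioses, lay at -0.10, -0.20 and 0.00. Pgk1, Pgam1, Eno1 and Pkm2, which carry the payoff steps from bisphosphoglycerate to pyruvate, lay between -0.05 and 0.15. Eno2, the neuronal enolase, lay at 0.19 with a wide interval (-1.34 to 1.72). Aldoc, an aldolase isoform known mainly from brain, varied most of all between experiments, with 7810, 72160 and 44410 on the GapmeR Ntep arrays and 18520, 104500 and 100700 on the control arrays. Within every experiment Aldoc was lower with GapmeR Ntep (-1.25, -0.54 and -1.18), yet experiment 1 was far below the others under both labels, and the difference of -0.99 had an SE of 1.04 (adjusted p = 0.582, and 0.0539 with the experiments as a block).

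No regulator of flux passed the test. Pfkfb3 makes the fructose bisphosphate that activates phosphofructokinase, and its difference was 0.37 (adjusted p = 0.308), positive in all 3 experiments and for both of its probes. Pfkfb4, a related enzyme, lay at -0.09 (adjusted p = 0.803), with a second probe at the detection floor. Pdk1, the kinase that shuts pyruvate out of the citric acid cycle and a known HIF target, gave 1703, 4911 and 4788 on the GapmeR Ntep arrays and 2269, 6347 and 6487 on the control arrays. Both arrays of experiment 1 were the low ones, and the difference within each experiment was nearly constant (-0.41, -0.37 and -0.44). The pooled log2 difference of -0.41 had an SE of 0.59 (adjusted p = 0.695, and 0.113 with the experiments as a block).

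Within the HIF system no member passed the test. Hif1a, the oxygen-regulated subunit whose control is mainly at the protein level, gave 24400, 18550 and 25890 on the GapmeR Ntep arrays and 20020, 14660 and 14360 on the control arrays. The groups overlapped, since the GapmeR Ntep array of experiment 2 lay below the control array of experiment 1, and the difference of 0.49 did not pass (SE 0.23, adjusted p = 0.242). Epas1, which encodes HIF-2 alpha, gave 29340, 30220 and 24930 against 26900, 22830 and 25640 with its brightest probe (0.16, adjusted p = 0.578). A dimmer Epas1 probe gave 96.96, 101 and 20 against 304, 223 and 99.7, and the mean of the tested Epas1 probes was -0.77, so the direction for Epas1 depended on the probe. The dimmer probe was at the floor on 1 array, and its difference of -1.70 passed only with the experiments as a block (0.0391) and with array weights (0.0363), against 0.225 without them.

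Egln3, a prolyl hydroxylase gene that HIF itself induces, gave 1215, 3307 and 2200 on the GapmeR Ntep arrays and 3645, 4706 and 4233 on the control arrays. All GapmeR Ntep arrays lay below all control arrays, in each experiment (-1.58, -0.51 and -0.94), but the log2 difference of -1.01 (SE 0.38) did not pass (adjusted p = 0.170). A second Egln3 probe, 299 bases away, gave -0.90 (adjusted p = 0.172). Egln1, the main oxygen sensor in most cells, was dim and lay at -0.10 (adjusted p = 0.776).

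Of the 12 hypoxia-responsive genes tested, 1 was called higher and 1 lower, against 1.98% and 3.17% of all genes. They were the called members Ndrg1 and Kdm3a, too few to set this group apart. Ndrg1 was read by a probe on chromosome 15, bases 66761057 to 66761116 of the minus strand in mm9. It gave 5949, 5751 and 5783 on the GapmeR Ntep arrays and 1254, 2304 and 2042 on the control arrays. The GapmeR Ntep arrays lay close together and well above every control array, of which experiment 1 was the lowest. The log2 difference was 1.69 (SE 0.26, adjusted p = 0.0312), with 2.25, 1.32 and 1.502 within experiments 1, 2 and 3, and 1.39 without both arrays of experiment 1 (adjusted p = 0.0487). Leaving out any 1 of the 6 arrays took the adjusted p to between 0.0538 and 0.127, with the difference between 1.42 and 1.88.

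Kdm3a encodes a demethylase of histone H3 lysine 9 whose transcription is raised by HIF. Its probe lies on chromosome 6, bases 71539112 to 71539171 of the minus strand, and gave 16890, 15420 and 14860 on the GapmeR Ntep arrays against 27930, 31580 and 25730 on the control arrays. The groups were well separated, with every GapmeR Ntep array below every control array. The log2 difference was -0.85 (SE 0.17, adjusted p = 0.046), with -0.72, -1.03 and -0.79 within the experiments. The call was near the threshold: leaving out any 1 array took the adjusted p to between 0.0747 and 0.188, and 75th percentile scaling gave -0.71 (adjusted p = 0.099).

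Vegfa, the vascular growth factor and a standard HIF target, was read by 2 probes. Its brighter probe, at bases 46154387 to 46154446 of chromosome 17, gave 5849, 5463 and 6294 on the GapmeR Ntep arrays and 5094, 2362 and 2707 on the control arrays. The groups did not overlap, but in experiment 1 the control was nearly as high, so that the differences within experiments were 0.20, 1.21 and 1.22 and their mean of 0.88 did not pass (SE 0.32, adjusted p = 0.159). The dimmer probe lies 7989 bases further upstream in the gene, at bases 46162376 to 46162435, and gave 2212, 1637 and 2130 against 887, 375 and 391. Here the separation was larger in all experiments (1.32, 2.13 and 2.44), and the log2 difference of 1.96 passed (SE 0.38, adjusted p = 0.0433). This was the third called member probe among 61 tested (2 higher and 1 lower), where 2.09% of all 30990 tested probes were called higher and 3.21% lower (5.3% in all). The Vegfa call was lost when any GapmeR Ntep array or the control array of experiment 2 or 3 was left out (adjusted p between 0.0634 and 0.16). Both probes thus lay above 0, and whether the difference in size between them came from transcript isoforms was not tested.

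Among the rest of the panel, Ankrd37, a small ankyrin-repeat gene known as a sensitive HIF target, gave 5377, 5604 and 5204 on the GapmeR Ntep arrays and 3273, 4016 and 3646 on the control arrays. The groups were apart in all experiments, and the log2 difference of 0.57 (SE 0.16, adjusted p = 0.097) passed only with array weights (0.0243) and with the variance prior taken over all probes (0.0445). Bhlhe40, a circadian repressor induced by HIF, gave 7321, 6277 and 6192 against 6491, 3547 and 3637 (0.59, SE 0.28, adjusted p = 0.255). As for Vegfa, the high control was that of experiment 1, and there the difference was only 0.17, against 0.82 and 0.77 in experiments 2 and 3. Car9, carbonic anhydrase IX, which acidifies the surroundings of hypoxic cells, had the largest difference below 0, with a wide interval. It gave 615, 6234 and 2665 on the GapmeR Ntep arrays and 3147, 11170 and 10940 on the control arrays. Within each experiment Car9 was lower with GapmeR Ntep (-2.36, -0.84 and -2.04), but the GapmeR Ntep array of experiment 2 lay above the control array of experiment 1, and the pooled -1.74 (SE 0.94) did not pass (adjusted p = 0.307, and 0.0504 with the experiments as a block).

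The remaining members did not pass and lay between -0.23 and 0.25. Bnip3 and Bnip3l, which direct mitochondria to autophagy, lay at -0.23 and -0.10. P4ha1 and P4ha2, subunits of the collagen prolyl hydroxylase, lay at -0.16 and 0.25, and Higd1a, a mitochondrial protein gene, at 0.17. Adm, the peptide hormone adrenomedullin, was dim and lay at 0.12. Mxi1, an antagonist of Myc, was above background on no array and was not tested. Over all members, 3 had every GapmeR Ntep array above every control array (Ndrg1, Vegfa and Ankrd37), where 17.1% of all genes did, and 4 had them below (Slc2a1, Gapdh, Egln3 and Kdm3a), where 15.4% of all genes did. Panels with the signals on each array set Ndrg1, Vegfa, Ankrd37 and Hif1a beside Kdm3a, Slc2a1, Egln3, Car9 and Gapdh.

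**Figure D2:**
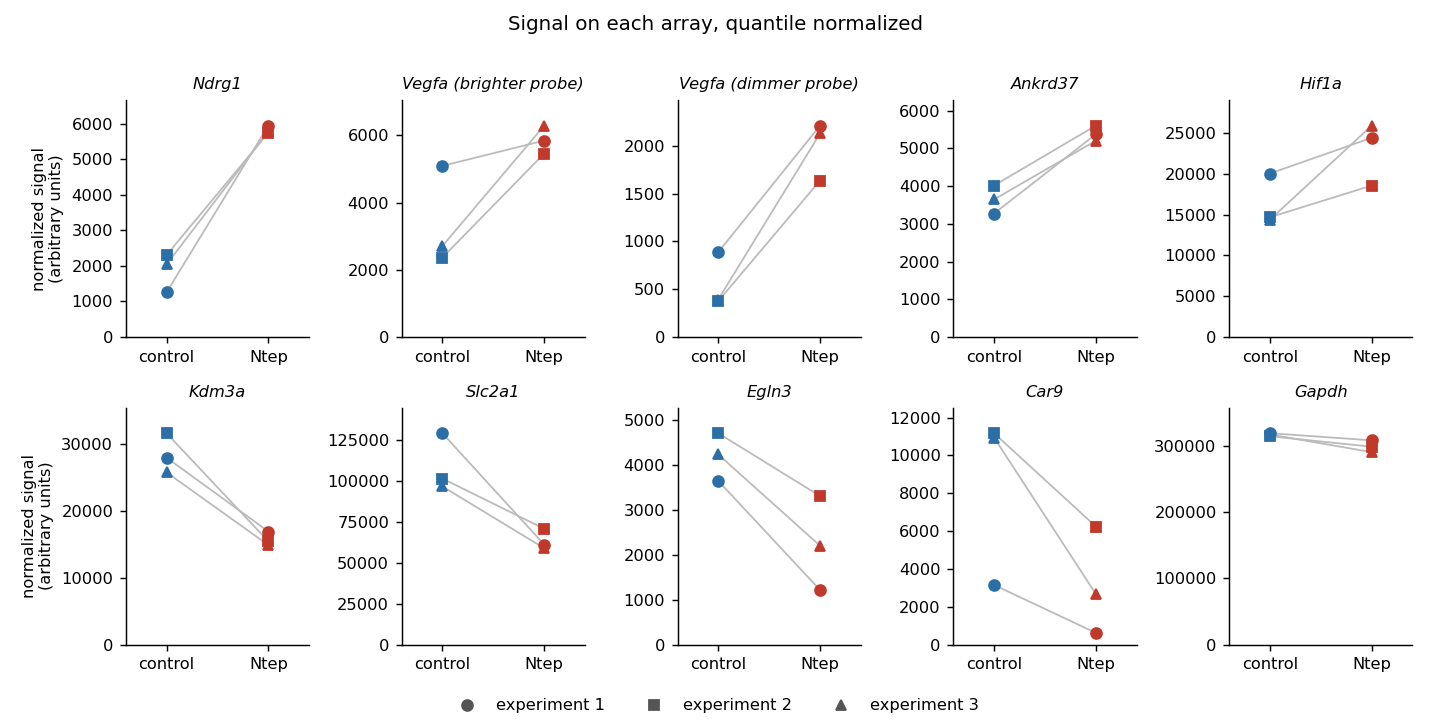
Quantile-normalized signal (y axis, arbitrary units, from 0) on the 3 control arrays (blue) and the 3 GapmeR Ntep arrays (red), with a line joining the arrays of each experiment and a different symbol for each. Ndrg1 goes from 1254 to 2304 on the control arrays to 5751 to 5949, Kdm3a from 25730 to 31580 to 14860 to 16890, and Gapdh stays between 290500 and 319100.

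To show what the called and uncalled genes have in common upstream, the 250 bases before the annotated starts were searched for ACGTG and GCGTG, the core letters of the hypoxia response element, on both strands (CACGT and CACGC on the other). The first of them also lies inside CACGTG, the E-box read by Myc, Mnt and Bhlhe40, so the searches overlap. RefSeq starts of GRCm38.p6 were found for 34 of 38 members (not for Epas1, Ndrg1, Bnip3l and Bhlhe40). A match stood before 40 of their 52 starts (76.9%), against 38.6% of all 32851 starts, and 31 of the 34 genes had one before at least 1 start, against 41.5% of all gene symbols. These windows were also richer in G and C (a median of 60.4% against 52.4%), and the part of base composition in the higher share was not tested. Windows are shown for the called Kdm3a (chr6:71632918-71633167, minus strand), for Slc2a1 (chr4:119108495-119108744, plus strand), Ankrd37 (chr8:45999851-46000100, minus strand) and Car9 (chr4:43506776-43507025, plus strand), which have 1 listed start and gave large differences in either direction, and for Ldha (chr7:46845554-46845803, plus strand), a bright enzyme gene near 0. Capitals mark the matches, read 5′ to 3′ up to the base before the start.
Kdm3a: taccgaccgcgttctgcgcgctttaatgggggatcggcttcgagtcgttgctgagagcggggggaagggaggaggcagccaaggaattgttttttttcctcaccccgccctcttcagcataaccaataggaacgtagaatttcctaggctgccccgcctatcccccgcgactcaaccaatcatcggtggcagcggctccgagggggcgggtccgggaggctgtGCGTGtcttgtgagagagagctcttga
Slc2a1: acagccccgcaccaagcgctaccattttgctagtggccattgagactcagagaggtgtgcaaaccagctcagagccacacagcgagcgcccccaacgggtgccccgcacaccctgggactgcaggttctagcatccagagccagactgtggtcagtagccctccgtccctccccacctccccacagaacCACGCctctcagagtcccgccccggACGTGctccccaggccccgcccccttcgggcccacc
Ankrd37: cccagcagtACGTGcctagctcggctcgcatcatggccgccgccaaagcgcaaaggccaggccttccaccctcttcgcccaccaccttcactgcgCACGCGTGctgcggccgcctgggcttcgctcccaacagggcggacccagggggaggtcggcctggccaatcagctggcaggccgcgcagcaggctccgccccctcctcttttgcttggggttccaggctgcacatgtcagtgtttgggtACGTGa
Car9: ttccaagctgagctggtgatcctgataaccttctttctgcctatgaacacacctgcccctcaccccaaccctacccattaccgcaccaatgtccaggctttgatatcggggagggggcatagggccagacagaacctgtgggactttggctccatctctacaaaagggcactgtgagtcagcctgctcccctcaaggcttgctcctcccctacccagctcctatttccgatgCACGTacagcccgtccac
Ldha: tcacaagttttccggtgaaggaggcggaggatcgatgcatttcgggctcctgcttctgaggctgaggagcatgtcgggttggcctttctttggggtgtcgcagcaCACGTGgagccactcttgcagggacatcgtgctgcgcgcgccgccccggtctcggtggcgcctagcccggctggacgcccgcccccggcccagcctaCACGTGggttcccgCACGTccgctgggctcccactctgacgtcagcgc
Kdm3a holds 1 match (before 1 of its 3 starts), Slc2a1 2, Ankrd37 4, Car9 1 and Ldha 5 before the start shown. A CACGTG, as in the Ldha window, counts as 2 matches, 1 on each strand. For Kdm3a and Ldha, which have several starts, the start with most matches is shown, and the other Ldha start has 1. Vegfa has none before the more upstream of its 2 listed starts. Genes above 0, below 0 and at 0 all carry the letters, which are a description of the sequence and not evidence of binding.

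Some members set experiment 1 apart from the other experiments, although over all members the median difference in controls was 0.00. In both labels, 4 members (10.8%) were lower in experiment 1 than in experiments 2 and 3 by more than 1 on the log2 scale, against 3.51% of all genes. They were Aldoc (-2.47 in controls and -2.86 with GapmeR Ntep), Car9 (-1.81 and -2.73), Pdk1 (-1.5 and -1.51) and Slc16a3 (-1.32 and -1.96). Several of these are known HIF targets, but so are many members by the choice of the list, and the cause was not tested. Eno2 went the other way (1.53 and 1.43), and the control of experiment 1 was also high for Vegfa (1.01) and Bhlhe40 (0.85), which are HIF targets too. The heatmap of members shows the 4 lower members as blue cells on both arrays of experiment 1. Within experiments the median difference of the members was -0.05, 0.14 and -0.01, and it was 0.11 without experiment 1.

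**Figure D3:**
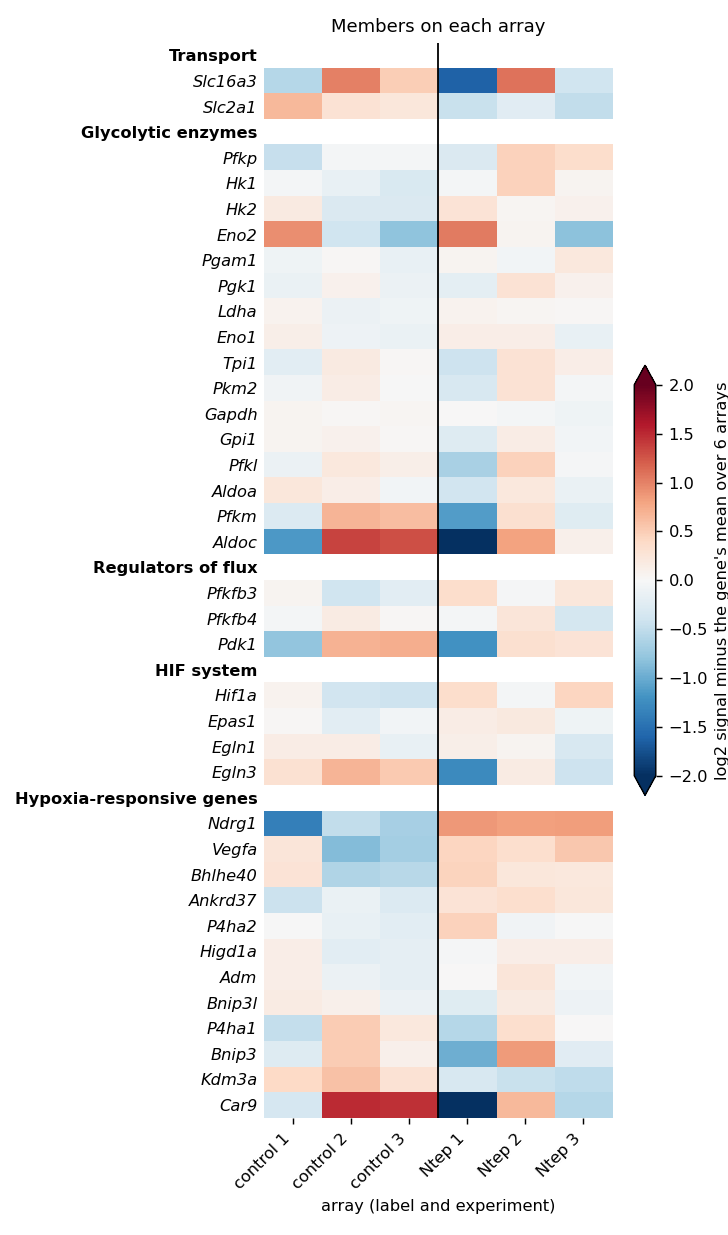
Log2 signal of each tested member (rows, grouped by role) on each array (columns, 3 control then 3 GapmeR Ntep, numbered by experiment), minus the gene's mean over the 6 arrays; red is above and blue below that mean, and colours end at 2 in either direction. Ndrg1 is red on all 3 GapmeR Ntep arrays and blue on all 3 control arrays, whereas Aldoc, Pdk1 and Slc16a3 are blue on both arrays of experiment 1.

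Where a member had probes at different places along the gene, the position of the probe moved with experiment 1. Of the 3 Gapdh probes at the 3′ end, experiment 1 differed from the other experiments by -0.03 to 0.015 in controls and -0.27 to 0.07 with GapmeR Ntep. The 3 Gapdh probes 1131 to 1464 bases further upstream were lower in experiment 1 by -0.50 to -0.85 in controls and -0.62 to -0.67 with GapmeR Ntep. In 8 of the 10 members with a probe at least 500 bases upstream of the most 3′ one (Bnip3l and Vegfa excepted), the most upstream probe was lower, relative to the most 3′ one, on both arrays of experiment 1. For Epas1, among these 8, the most 3′ probe was the dimmer one, at the floor on 1 array. The same count was not made over all genes, so whether it is unusual was not tested. Integrity of the RNA was not given in the sources used here, and its part in the spread of Aldoc, Car9, Pdk1 or Slc16a3 was not tested. Between labels, the upstream probes of Gapdh, Ldha and Tpi1, genes chosen after their values were seen, differed by 0.03 to 0.34 and the 3′ probes by -0.08 to 0.09.

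**Figure D4:**
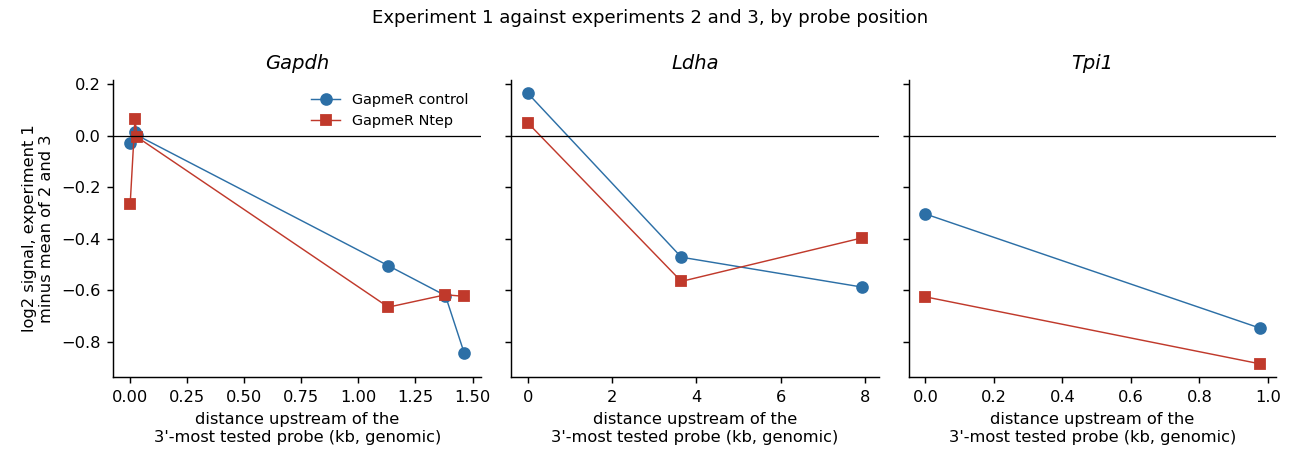
Log2 signal of experiment 1 minus the mean of experiments 2 and 3 (y axis) against the genomic distance of each probe upstream of the most 3′ tested probe of its gene (x axis, kb) for Gapdh, Ldha and Tpi1, with controls in blue and GapmeR Ntep in red. Gapdh lies near 0 at the 3′ end in controls and at -0.85 for the probe 1464 bases upstream.

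Other genes of the same pathways were counted in 5 lists. In a list of other glycolytic and pyruvate genes, 31 of 36 were tested, 2 were called higher and none lower, with a median of -0.08. Over all genes 1.98% were called higher and 3.17% lower (5.15% in either direction), and the count of this list is near the share in either direction. With the experiments as a block 2 genes of the list were called higher and 3 lower, against 6.49% and 7.4% of all genes. The called genes were Pdp2 (0.98, adjusted p = 0.0312), a phosphatase that reactivates pyruvate dehydrogenase, and Bpgm (0.84, adjusted p = 0.0392), which diverts bisphosphoglycerate from glycolysis. Pdk3, a kinase that opposes Pdp2, lay at -0.84 (adjusted p = 0.0536) and Dlat, a subunit of pyruvate dehydrogenase, at -0.91 (adjusted p = 0.0625). Neither passed, but Pdk3 did with the experiments as a block (0.04). Tigar (9630033F20Rik in the files), which lowers fructose bisphosphate, lay at 0.83 (adjusted p = 0.116).

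Of the other HIF system genes, 12 of 13 were tested and 1 was called lower, against 3.17% of all genes, with a median of 0.07. With the experiments as a block 2 were called lower, against 7.4% of all genes. The gene called without the block was Cul2, the scaffold of the Vhl ubiquitin ligase (-1.29, adjusted p = 0.0482). For Cul2, 3 of 4 probes lay between -2.04 and -1.10 and the fourth at 0.11. Arnt, the partner that both HIF alpha subunits need, gave 1925, 6047 and 5238 on the GapmeR Ntep arrays and 14260, 14700 and 17820 on the control arrays. The groups did not overlap, and the log2 difference of -1.98 (SE 0.45) missed the threshold with the brighter probe (adjusted p = 0.0621, and 0.0446 with the experiments as a block) and passed with a dimmer one (-1.93, adjusted p = 0.0361), which in turn missed it with the block (0.0506). Vhl and Crebbp lay at 0.40 and 0.64 and did not pass, nor did Hif3a, which was above background on only 3 of the 6 arrays.

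In a list of other hypoxia-responsive genes, 34 of 40 were tested, 1 was called higher and 2 lower, with a median of 0.06, as for all genes, of which 5.15% were called in either direction. With the experiments as a block the counts were 3 higher and 2 lower, against 13.9% of all genes in either direction. Bhlhe41, a repressor related to Bhlhe40, was higher (1.57, adjusted p = 0.0348). Gbe1, the glycogen branching enzyme, was lower (-1.75, adjusted p = 0.0307), although a much dimmer probe of it lay at -0.50. Nos2, the inducible nitric oxide synthase, was lower too (-2.99, adjusted p = 0.0467), with 86.8 to 236 on the GapmeR Ntep arrays and 748 to 2654 on the control arrays. With the experiments as a block Nos2 did not pass (0.0638). Hilpda (2310016C08Rik in the files), a lipid droplet gene, lay at 0.69 (adjusted p = 0.0796, and 0.0474 with the block), and Ak4, a mitochondrial adenylate kinase, at 0.40 (adjusted p = 0.186). As among the members and among all genes, the called genes of this list went both ways.

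**Figure D5:**
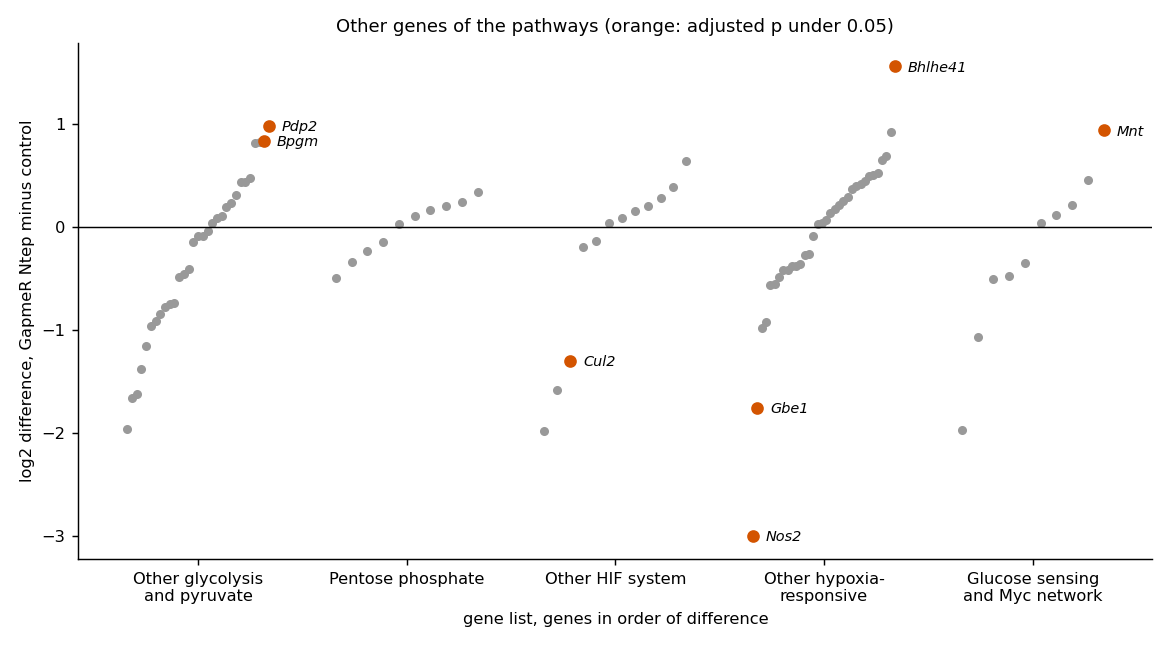
Log2 difference between GapmeR Ntep and GapmeR control (y axis) for the tested genes of 5 further lists (x axis, genes in order of difference within a list), with the 7 genes that passed the test in orange and named. Bhlhe41 at 1.57 and Nos2 at -2.99 stand at the ends of the hypoxia-responsive list, and no gene of the pentose phosphate list passed.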

How the data were processed

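The authors extracted the scans with Agilent Feature Extraction 10.7.3.1 and deposited, per array, background-subtracted intensity values on a linear scale, not normalized between arrays, together with a quantile-normalized table used here as an alternative. The methods and the supplementary spreadsheet name different formats of the array. Spots of a probe were averaged (55681 probes). After quantile normalization and a floor of 20, log2 signals were fitted in an unpaired model by limma 3.58.1 in R 4.3.3. Tested were the 30990 probes (22094 genes) whose group mean reached 50 in either group. P-values are two-sided and Benjamini-Hochberg adjusted over these probes. The brightest probe stood for a gene. Per-array values were given for members that passed, the 5 largest differences in each direction, Gapdh, Ldha, Hif1a, Epas1, Slc2a1 and Vegfa, and up to 5 genes were named per further list. Pdk1, Slc16a3 and the probe positions were chosen after their values were seen. Probes carry the mm9 coordinates of the deposited files. The steps were tested on simulated data, and promoter searches used Python 3.11.15.

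Members and lists were chosen with earlier results of these data known. Experiment numbers, from the study's supplementary spreadsheet, pair the arrays: residuals of arrays with the same number correlated at 0.466, 0.300 and 0.254, other pairs at -0.327 to 0.126. A fit with experiments as a block was run beside the unpaired one. With 3 arrays a group, their number limits the precision. Alternatives were other normalizations, floors, filters, variance models, probe rules and the omission of each array.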

Additional observations from a re-analysis of the deposited data

How the results depend on the processing

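Ndrg1 was called under all alternatives but these: 0 members were called higher without scaling between arrays, without a filter on dim probes, with the methods' t-test and with any 1 array left out. More were called higher when any probe counted (2, Ndrg1 and Vegfa), with the variance prior taken over all probes (2) and with array weights (6). The count of members called lower was 0 with 75th percentile scaling, no scaling, no filter, the methods' t-test, the rule of a 2-fold change at an unadjusted p under 0.01, without both arrays of experiment 1 and with any 1 array left out. It was 2 when only probes well above background were tested or with a trend and robust variance, and 5 with array weights. The median difference of the members was 0.22 with 75th percentile scaling, 0.11 without experiment 1, and -0.09 to 0.09 with 1 array left out. Of all probes, 1642 were called, against 962 without scaling, 564 without a filter, 2884 for probes well above background, 4292 with the replicate block, 2667 with trend and robust variance, 10260 with array weights, 285 with the methods' t-test, 2520 with the 2-fold rule, 868 without experiment 1 and 0 to 1437 with 1 array left out. Of the 5 further lists 7 genes were called, against 3 without scaling, 14 with the replicate block, 0 without experiment 1 and 0 to 3 with 1 array left out. The replicate block kept 2 called members (Ndrg1 and Kdm3a) while 13.9% of all genes were called. Signs turned for Gapdh (0.17 with 75th percentile scaling, 0.018 without scaling, 0.043 as the mean of its probes), Taldo1 (0.081 with 75th percentile scaling) and Epas1 (-0.77 as the mean of its probes). The variance prior and the omission of experiment 1 were alternatives chosen after seeing the data, and the causes of these shifts were not tested. For the dim Slc16a3 the interval (-2.45 to 1.22) did not exclude a 2-fold change in either direction.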

Other observations

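The pentose phosphate pathway branches from glycolysis at glucose 6-phosphate and supplies NADPH and ribose. All 10 of its listed genes were tested, with a median of 0.07. None of the pathway was called by limma, none had an unadjusted p under 0.05 and none was called with the experiments as a block. The shares over all genes were 5.15%, 24.9% and 13.9%. G6pdx, its entry enzyme, gave 14660, 25850 and 22890 on the GapmeR Ntep arrays and 26490, 31730 and 28530 on the control arrays (-0.49, adjusted p = 0.295), with no overlap between the groups. Pgd, the next dehydrogenase for NADPH, lay at 0.25 (adjusted p = 0.363), Rpia at 0.34, Taldo1 at -0.14 and Prps1 at 0.21.

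In the glucose-sensing and Myc network, 10 of 12 genes were tested, 1 was called higher and none lower, and the median was -0.15. Over all genes 1.98% were called higher and 3.17% lower. With the experiments as a block 1 gene of the network was called higher and 1 lower, against 6.49% and 7.4% of all genes. Mnt, a repressor that competes with Myc for the partner Max, was higher (0.94, adjusted p = 0.0411), with 14650, 17700 and 16750 against 7519, 8759 and 9305. Mlxip, the glucose sensor MondoA, lay at -1.06 (adjusted p = 0.0625), Mxd4, another Max partner, at -1.97 (adjusted p = 0.0756, and 0.0312 with the experiments as a block), and Mlx, the partner of MondoA, at 0.46 (adjusted p = 0.166). Txnip and Arrdc4, the 2 best known MondoA targets, lay at -0.34 and -0.47 (adjusted p = 0.617 and 0.467). Myc itself lay at 0.22 (adjusted p = 0.540).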
